A study of Mus musculus with 4 samples.

Results

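Of the 6758 adult-only domains of RNA polymerase II (POL2) in mouse uterus, 750 held an adult FOXA2 interval, and these 750 are described here. They were chosen from the deposited interval lists by position alone: an adult POL2 interval was taken when it touched no POL2 interval listed at postnatal day 12 (PD12) and touched at least 1 adult FOXA2 interval, by 1 bp or more. They make up 750 of 14818 adult POL2 domains, and of 35977 intervals in all 4 lists. The adult lists of both antibodies and the PD12 list of POL2 chose them, so their number, and the absence of PD12 POL2 in them, are no findings. "Adult-only" describes the lists and does not show that polymerase was absent at PD12.

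All 4 groups were chromatin immunoprecipitation and sequencing (ChIP-seq) of whole uterus of female mice, with 1 library each. The adult groups, FOXA2 and POL2, came from pseudopregnant females and carry days 2.5 and 3.5 of pseudopregnancy on a single library, and the PD12 groups, FOXA2 and POL2, came from 12-day-old pups. The sources used here give neither strain nor genotype. The POL2 antibody was raised against the repeats of the polymerase tail phosphorylated on serine 2, and the FOXA2 antibody was a goat polyclonal. The lists hold positions only, so depth and signal height are unknown, no difference has a replicate check, and no test was possible. Shares carry exact Clopper-Pearson 95% intervals and medians carry 95% intervals from the ordered values. Both cover counting error only. Intervals of 1 list are not replicates, and whole uterus does not show that FOXA2 and polymerase were in the same cells. Listing in a larger share of cells and stronger binding per cell cannot be told apart either.

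FOXA2 is a forkhead transcription factor that, within the uterus, marks the glandular epithelium. Forkhead factors of its family can bind their sites in closed chromatin and are found at enhancers as well as at promoters. Uterine glands form after birth, and adult glands secrete factors, among them LIF, that embryo implantation requires. Polymerase phosphorylated on serine 2 is the elongating form and is spread along transcribed gene bodies, while short stretches of polymerase also occur at active enhancers. Pseudopregnancy follows mating with a sterile male and gives a uterus under rising progesterone with no embryo. No source used here names the build of the positions. Of the 35977 intervals, 260 ended past the last gene of their chromosome in the GRCm38 table at hand, so positions are printed as in the files and were not set against that table. The gene, exon or intron and the sequence at each domain are for that reason not stated.

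These domains were short to moderate in length, and a small number were very long. Their median width was 3800 bp (interval 3600 to 4000, n = 750), with quartiles at 2400 and 6000 bp and a range of 400 to 74000 bp. The 6008 adult-only domains without adult FOXA2 had a median of 3400 bp (3200 to 3400), and the 1095 domains that held adult FOXA2 and were also listed at PD12 had a median of 8400 bp (8200 to 8800). The 90th percentiles were 9800 bp in the FOXA2-holding adult-only domains, 7800 bp in those without adult FOXA2 and 22000 bp in those listed at both stages. A wider domain touches another list more often by its length alone, so these widths are partly a product of the way the domains were chosen.

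An adult FOXA2 interval was in 11.1% (10.4 to 11.9) of adult-only domains, against 13.6% (12.8 to 14.4) of adult domains also listed at PD12 and 12.5% of all adult domains. When domains of like width were set side by side, this order was not kept in every class. Among domains of up to 2 kb, 160 of 1779 adult-only domains held adult FOXA2 (8.99%, 7.71 to 10.4), against 37 of 496 domains listed at both stages (7.46%, 5.31 to 10.1). Between 2 and 4 kb the shares were 10.7% (9.47 to 12.0) and 8.89% (7.53 to 10.4), and between 4 and 6 kb they were 11.7% (9.99 to 13.5) and 9.80% (8.41 to 11.3). Between 8 and 12 kb they were 16.4% (13.2 to 20.1) and 16.6% (14.8 to 18.6). Above 20 kb, 8 of 38 adult-only domains held adult FOXA2 (21.1%, 9.55 to 37.3), against 144 of 421 domains of both stages (34.2%, 29.7 to 39.0). The intervals of the 2 classes overlapped in all 7 width classes, which does not show that the shares were alike.

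**Figure D1:**
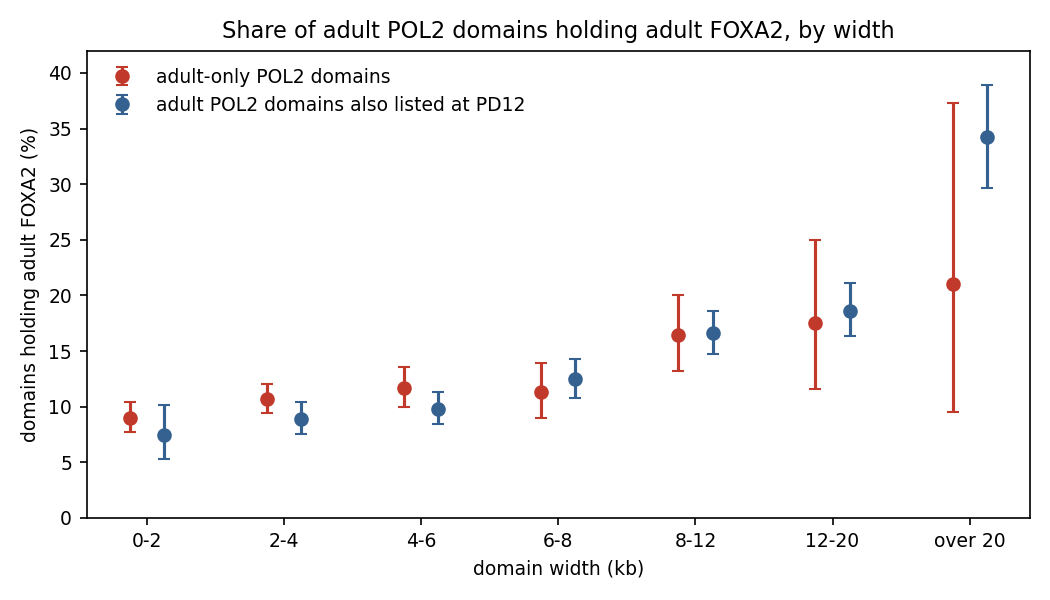
Share of adult POL2 domains that held an adult FOXA2 interval (vertical axis, %) by domain width (horizontal axis, kb), for adult-only domains (red) and for adult domains also listed at PD12 (blue). Points are shares and bars exact 95% intervals; the share was 8.99% in the narrowest adult-only domains and 21.1% in the widest.

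Per length of domain, adult-only domains held 27.7 adult FOXA2 intervals per Mb (790 in 28.6 Mb), against 18.3 per Mb in adult domains also listed at PD12 (1222 in 66.7 Mb). Domains listed at PD12 alone held 9.37 per Mb (78 in 8.33 Mb). These values are not matched for width. An interval counts whole when it touches a domain by 1 bp, which raises the density of short domains by length alone. The density moved with width: among adult-only domains it was 67.1 per Mb up to 2 kb and 10.2 per Mb above 20 kb, and among domains listed at both stages 48.6 and 15.1 per Mb. From 2 to 4 kb it was 36.4 in adult-only domains and 28.9 in those of both stages, and from 4 to 6 kb 24.8 and 20.45. Between 6 and 20 kb the classes lay close, at 17.5 and 18.4 per Mb from 6 to 8 kb, 18.6 and 18.7 from 8 to 12 kb, and 14.3 and 14.6 from 12 to 20 kb, with adult-only domains given first each time.

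The longest of these domains were long stretches with FOXA2 at only a few points inside. The widest, chr9:48523800-48597799 (74.0 kb), held 3 adult FOXA2 intervals of 1019, 714 and 812 bp, which began 7.56, 18.2 and 24.2 kb from its lower end and left the remaining 49.0 kb free. The nearest PD12 POL2 domain was 217.4 kb away, whereas the next adult domain was 0.8 kb away. The second, chr5:107610400-107684199 (73.8 kb), held a single interval of 877 bp that began 21.2 kb from its lower end. Its neighbour 3.4 kb further on, chr5:107687600-107718799 (31.2 kb), is the sixth widest and held 3 intervals of 534, 617 and 892 bp. The nearest PD12 POL2 was 46.6 kb from the second and 123.6 kb from its neighbour.

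The next of the 10 widest each held FOXA2 once or at a close pair of intervals, at distances from PD12 polymerase that differed widely. chr15:66938400-66995799 (57.4 kb) held 1 interval near its middle, at 27.1 kb, and had a PD12 POL2 domain only 3.0 kb away. chr13:24784200-24832799 (48.6 kb) also held 1 near its middle, at 23.5 kb, with PD12 POL2 59.0 kb away, and chr13:24724800-24749399 (24.6 kb) lay on its lower side, with 3 adult domains free of FOXA2 between them. chr19:24061000-24106599 (45.6 kb), chr6:119318400-119344599 (26.2 kb) and chr12:85511000-85530599 (19.6 kb) held 1 each and lay 9.6, 11.8 and 10.6 kb from PD12 POL2. chr14:120732600-120752399 (19.8 kb) held 2 intervals, 3.02 and 4.27 kb from its lower end. None of these 10 domains held a PD12 FOXA2 interval. Over all 750 domains the share with one was 7.20% (5.46 to 9.29), and 10 domains are too few to set against it.

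**Figure D2:**
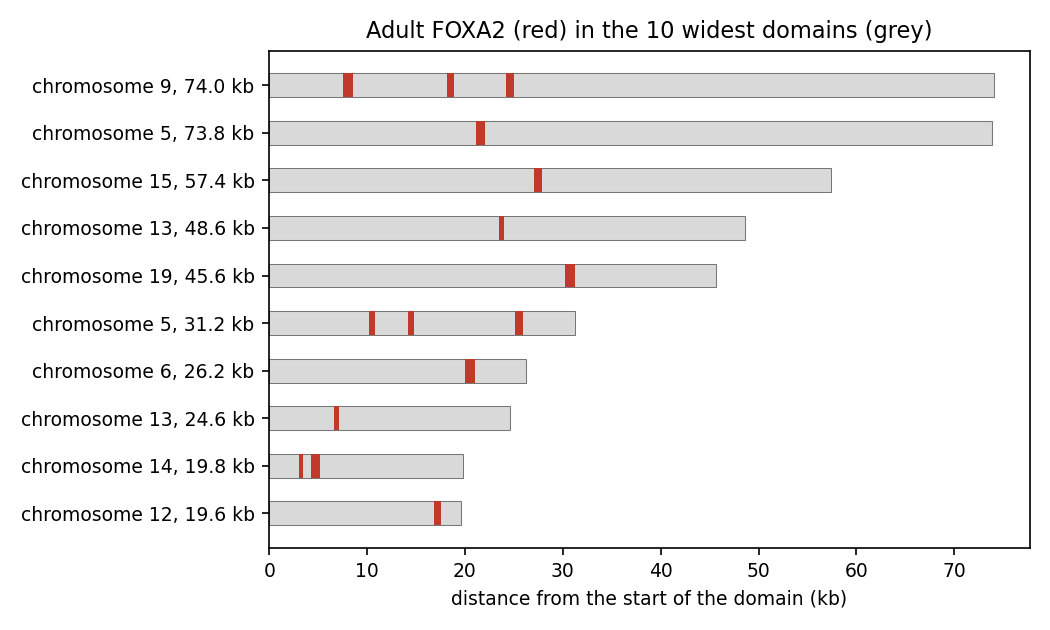
The 10 widest adult-only POL2 domains holding adult FOXA2 (grey bars, vertical axis by chromosome and width), with the adult FOXA2 intervals inside them (red) drawn to scale against distance from the lower end of the domain (horizontal axis, kb). The domains on chromosome 9 (74.0 kb) and chromosome 5 (31.2 kb) held 3 intervals each.

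Most of the 750 domains held FOXA2 once. There were 713 with 1 interval, 34 with 2 and 3 with 3, which makes 790 intervals, none of them in more than 1 of the domains. The median domain width was 3600 bp with 1 interval and 6200 bp (4800 to 8800, n = 37) with 2 or 3. In these 37 the gaps between neighbouring intervals, which the width of the domain bounds, had a median of 1416 bp and a range of 18 to 10295 bp (40 gaps). The 3 domains with 3 intervals were the pair from chromosomes 9 and 5 above and chr4:94223000-94229399. The last was only 6.4 kb wide, held intervals of 953, 858 and 750 bp over 40.0% of its bases, and had no other POL2 domain of either stage within 374.0 kb. The widest domains with 2 intervals included chr4:144479600-144497399 (17.8 kb, intervals of 1562 and 951 bp), chr16:23977600-23990399 (12.8 kb, 870 and 1195 bp) and chr5:115933800-115945599 (11.8 kb, 995 and 1848 bp).

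The FOXA2 intervals in these domains were wide for their list. Their median width was 871.5 bp (843 to 896, n = 790), against 887.5 bp (863 to 910, n = 1222) for those in adult domains also listed at PD12 and 657 bp (652 to 662, n = 8361) for those outside adult POL2. Of the 790, 222 (28.1%, 24.99 to 31.4) were among the widest 10% of all adult FOXA2 intervals, against 35.5% (32.8 to 38.3) in domains of both stages and 4.57% (4.13 to 5.04) outside adult POL2. Wider intervals touch a domain more often by length alone, and width is not signal height. The median did not follow the width of the domain: it was 830 bp (792 to 874) in domains of up to 2 kb, 944.5 bp (898 to 993) from 2 to 4 kb, 859.5 bp (815 to 933) from 4 to 8 kb and 807 bp (764 to 854) above 8 kb.

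The place of FOXA2 within a domain was described for intervals already chosen for touching it. The whole interval was inside the domain for 603 of 790 (76.3%, 73.2 to 79.3), against 1086 of 1222 (88.9%, 87.0 to 90.6) in the wider domains listed at both stages. Domains at least 5 kb long held 285 centres. Cut into 5 equal zones from the ends inward, each zone taking both sides, the outermost zone held 14.4% (10.5 to 19.0) of these centres, the next 26.3% (21.3 to 31.8), and the 3 inner zones 22.8%, 17.2% and 19.3%. Uniform placement would give 20% in each. The median distance of these centres to the nearer end was 1916 bp.

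In the narrow domains, FOXA2 took up much of the domain. This follows largely from the choice, because each domain had to touch an interval and interval width did not follow domain width. FOXA2 covered a median of 25.4% of the bases, with 122 domains at up to 10%, 248 from 10 to 25%, 242 from 25 to 50%, 94 from 50 to 75% and 44 above 75%. These bins are unequal in size and cannot show whether the domains formed separate groups. Coverage goes with width: above 50% there were 108 of 160 domains of up to 2 kb (67.5%, 59.7 to 74.7), 29 of 249 from 2 to 4 kb (11.7%, 7.94 to 16.3) and 1 of 231 from 4 to 8 kb. FOXA2-holding domains listed at both stages had 22 of 37 (59.5%, 42.1 to 75.3), 24 of 141 (17.0%, 11.2 to 24.3) and 1 of 335 in the same width classes, with overlapping intervals in each. The limit of 50% was set after the values were seen. PD12 FOXA2 was in 20 of 138 domains above it (14.5%, 9.08 to 21.5), against 34 of 612 others (5.56%, 3.88 to 7.68). The adult FOXA2 intervals were wider above it, with medians of 969 and 843.5 bp. A wider interval covers more of a domain, so this order follows in part from the limit itself. A PD12 FOXA2 interval was in 16 of 160 domains of up to 2 kb (interval 5.83 to 15.7%), and in 7.23% (4.34 to 11.2) of those from 2 to 4 kb, 5.20% (2.71 to 8.90) of those from 4 to 8 kb and 7.27% (3.19 to 13.8) of wider ones.

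**Figure D3:**
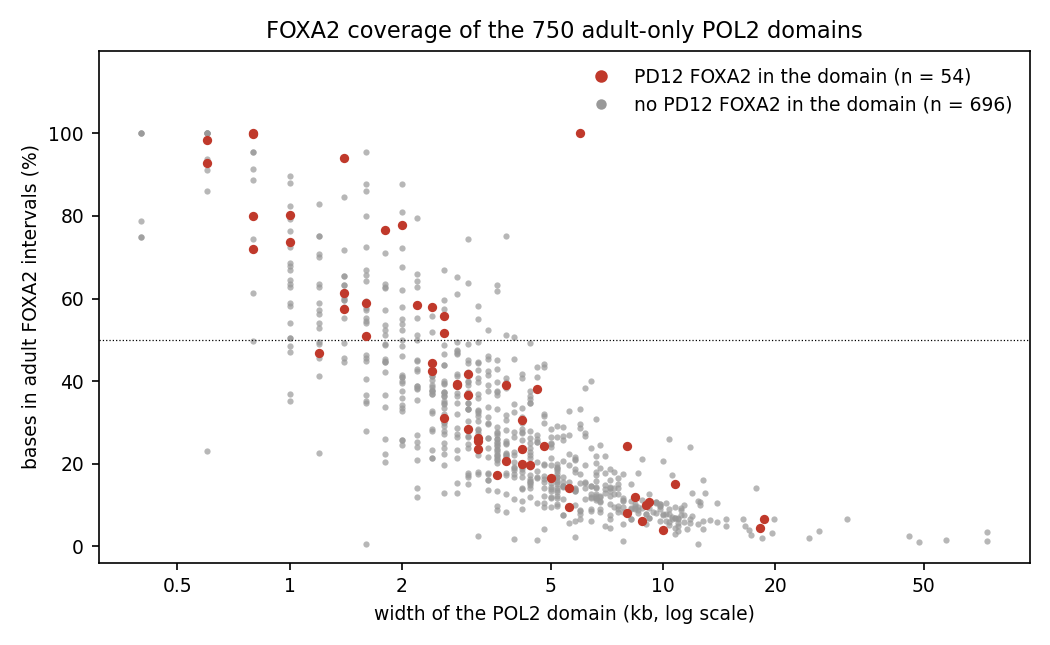
Percent of bases in adult FOXA2 intervals (vertical axis) against domain width (horizontal axis, kb, log scale) for the 750 domains; each point is a domain, red where it also held PD12 FOXA2 (n = 54) and grey where it did not (n = 696). The dotted line marks 50%, and the domain of 6.0 kb at 100% is the one on chromosome 17.

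Full coverage was seen in 11 domains, which were 10 of the 29 domains of up to 800 bp and a single longer one. A domain of up to 800 bp is narrower than the median FOXA2 interval in these domains (871.5 bp). chr17:39979800-39985799 (6.0 kb) lay wholly in an adult FOXA2 interval of 6346 bp, and 2 PD12 FOXA2 intervals of 3900 and 1446 bp covered 5340 bp of it. No other adult POL2 domain was within 1023.4 kb. Both antibodies thus had intervals with nearly the same ends there, and signal that does not depend on the antibody was not tested. Nor was it tested at 2 domains without full coverage, chr2:98502400-98505399 and chr2:98506200-98507599. Their PD12 FOXA2 intervals of 814 and 1145 bp were centred 8.5 and 0.5 bp from the adult ones. The nearest PD12 POL2 domain was 3034600 and 3032400 bp away. The 10 short ones included chr4:94645400-94646199 and chr8:81344400-81345199 (0.8 kb each), 5 of 0.6 kb and 3 of 0.4 kb, all tied at 100%. Of these 10, 1 held PD12 FOXA2, on 579 bp at the chromosome 4 domain, and their distances to the nearest PD12 POL2 domain ran from 2.6 to 541.8 kb. The 3 narrowest of all, equal at 0.4 kb with others and ordered by position, were chr3:5860400-5860799, chr3:15153800-15154199 and chr3:89353400-89353799.

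The PD12 FOXA2 list was not used to choose the domains. It had an interval in 54 of the 750 (7.20%, 5.46 to 9.29), against 115 of 1095 FOXA2-holding domains listed at both stages (10.5%, 8.75 to 12.5), 29 of 6008 adult-only domains without adult FOXA2 (0.483%, 0.324 to 0.693), and 1.62% of all adult POL2 domains. Of all 814 PD12 FOXA2 intervals, 587 lay on adult ones, so these shares are tied to the requirement of adult FOXA2. Counted over adult FOXA2 intervals instead, 52 of the 790 in these domains overlapped a PD12 interval (6.58%, 4.96 to 8.54), against 8.92% (7.38 to 10.7) in domains of both stages, 5.08% (4.62 to 5.58) outside adult POL2 and 5.65% of all 10373. Among the widest 50% of adult FOXA2 intervals the shares were 7.69% (5.73 to 10.1) in these domains, 10.9% (8.99 to 13.1) in domains of both stages and 7.67% (6.82 to 8.58) outside adult POL2.

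In these 54 domains FOXA2 was listed at both stages and polymerase in the adult alone, which is how they were picked and not a finding. They include chr17:39979800-39985799, chr2:98502400-98505399 and chr2:98506200-98507599, where signal that does not depend on the antibody was not tested. They held 55 PD12 intervals with a median width of 404 bp. Of these, 53 overlapped an adult FOXA2 interval of that domain. The 2 that did not were at chr10:66383000-66385599, 603 bp from the adult interval, and chr18:56730400-56733999, 1443 bp from it. Over the whole list, 587 of 814 PD12 intervals overlapped an adult one (72.1%, 68.9 to 75.2), but each domain here had to hold adult FOXA2. The 53 had a median of 88.5 bp between centres, and 29 of them were within 100 bp. This distance was taken on overlapping pairs only, so the widths of the intervals bound it. The adult FOXA2 intervals on PD12 ones had a median width of 975.5 bp (859 to 1102, n = 52), against 866 bp (840 to 889, n = 738) for the others in these domains.

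Among the 54, the widest were chr11:86555400-86573999 (18.6 kb) and chr10:38698800-38716999 (18.2 kb). In the first, an adult interval of 1224 bp met a PD12 interval of 918 bp, and in the second an adult interval of 826 bp met one of 237 bp. The next were chr13:59914600-59925399 (10.8 kb, adult interval of 1634 bp), chr8:123004800-123014799 (10000 bp, adult interval of 661 bp, reaching past the end of the domain) and chr9:25052600-25061799 (9.2 kb, 994 bp, of which PD12 FOXA2 was listed on 828 bp of the domain). The other 5 of the 10 widest ran from 8.0 to 9.0 kb, on chromosomes 13, 17, 3, 9 and 16. Their median width over all 54 was 3000 bp, against 3800 bp for the 696 domains without PD12 FOXA2.

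Polymerase listed at PD12 lay within 50 kb about as often as for adult-only domains without adult FOXA2, and within 5 kb less often. The nearest PD12 POL2 domain was a median of 26.0 kb away (quartiles 9.05 and 69.8 kb), against 23.8 kb for adult-only domains without adult FOXA2. It was within 5 kb for 117 of 750 (15.6%, 13.1 to 18.4), against 20.2% (19.2 to 21.3) of those without. Within 50 kb it was found for 67.3% (63.9 to 70.7), against 66.9% (65.7 to 68.1). The nearest other adult domain was itself also listed at PD12 for 368 of 750 (49.1%, 45.4 to 52.7), against 45.5% (44.3 to 46.8) of those without adult FOXA2. After adult domains with at most 5 kb between them had been joined, 607 of the 750 (80.9%, 77.9 to 83.7) lay in a stretch that touched no PD12 POL2 domain, against 4648 of 6008 (77.4%, 76.3 to 78.4) of those without adult FOXA2.

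In all 4 width classes, the median gap to other adult polymerase was larger for domains holding FOXA2 than for those that held none. The intervals were apart in the 2 narrower classes only. Their overlap in the wider 2 does not show that the gaps were alike. In domains of up to 2 kb the median gap to the next adult domain was 28.0 kb (19.6 to 38.2, n = 160) with FOXA2 and 16.4 kb (14.6 to 18.0, n = 1619) without. From 2 to 4 kb it was 14.0 kb (10.8 to 18.2, n = 249) and 9.4 kb (8.8 to 10.2, n = 2079). From 4 to 8 kb it was 9 kb (7 to 12.2) and 6.6 kb (5.6 to 7.4), where the intervals overlapped, and above 8 kb it was 5.9 kb (3.6 to 7.4) and 3.2 kb (2.4 to 4.2), where they overlapped too. The median gap to the nearest PD12 domain was also larger with FOXA2 in all 4 width classes, with overlapping intervals in each. In domains of up to 2 kb it was 39.9 kb (26.8 to 48.2) with FOXA2 and 32.6 kb (29.4 to 35.8) without. A PD12 domain within 5 kb was less frequent with FOXA2 in all 4 classes. The intervals were apart only from 2 to 4 kb, at 14.5% (10.3 to 19.45) with FOXA2 and 21.4% (19.66 to 23.2) without.

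**Figure D4:**
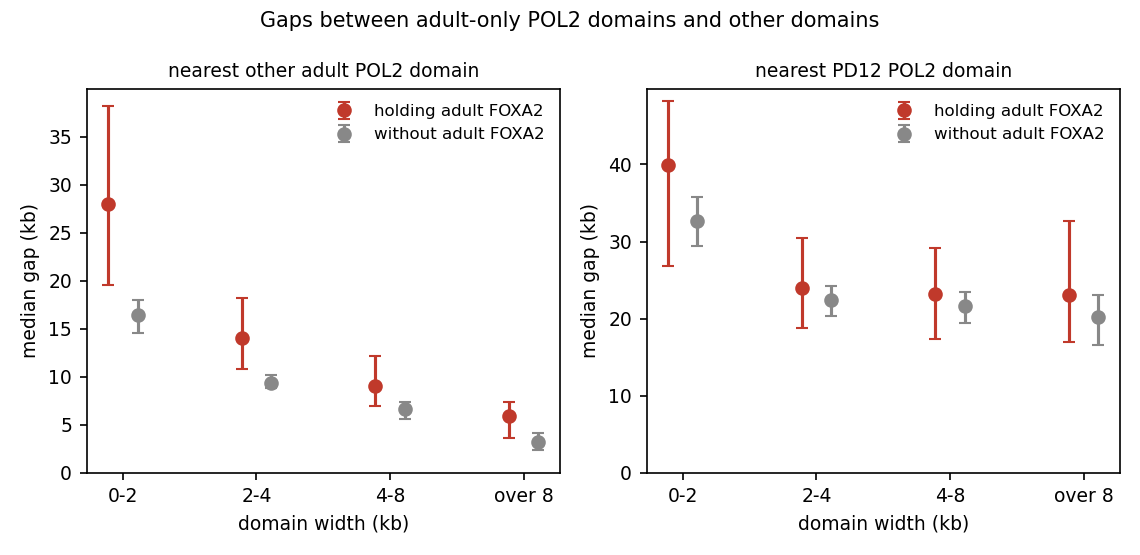
Median gap (vertical axes, kb) to the nearest other adult POL2 domain (left) and to the nearest PD12 POL2 domain (right) by domain width (horizontal axes, kb), for adult-only domains holding adult FOXA2 (red) and without it (grey); bars are 95% intervals of the median. Gaps to adult domains were 28.0 and 16.4 kb in the narrowest class.

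More adult FOXA2 lay just outside some domains. A further adult FOXA2 interval was listed in the 10 kb on either side, not touching the domain, for 125 of 750 (16.7%, 14.1 to 19.5), against 784 of 6008 adult-only domains without adult FOXA2 (13.1%, 12.2 to 13.9) and 221 of 1095 FOXA2-holding domains of both stages (20.2%, 17.8 to 22.7). By width it was 11.9% (7.30 to 17.9) with FOXA2 and 12.2% (10.6 to 13.9) without in domains of up to 2 kb, and 18.6% (13.8 to 24.2) and 13.3% (11.7 to 15.0) from 4 to 8 kb. PD12 FOXA2 was in those flanks for 7 of 750 (0.933%, 0.376 to 1.91) and 57 of 6008 (0.949%, 0.719 to 1.23).

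The domains were spread over all 20 chromosomes in the lists, and 119 of them (15.9%, 13.3 to 18.7) lay within 100 kb of another. No such share was computed for other adult-only domains, so it does not show closer grouping than theirs. Any other adult POL2 domain was within 50 kb for 80.0% (77.0 to 82.8), against 83.1% (82.2 to 84.1) of adult-only domains without adult FOXA2. The share of a chromosome's adult-only domains that held adult FOXA2 ran from 10 of 159 on X (6.29%, 3.06 to 11.3) and 29 of 366 on chromosome 7 (7.92%, 5.37 to 11.2) to 44 of 291 on chromosome 17 (15.1%, 11.2 to 19.8) and 66 of 425 on chromosome 5 (15.5%, 12.2 to 19.3). The intervals for X and chromosome 5 did not overlap, and these were picked as the extremes of 20.

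There were 5 groups of 3 domains and 52 pairs with gaps of up to 100 kb, and they were singled out after their values were seen. The group on chr9:48451800-48597799 spanned 146.0 kb and includes the widest domain. Adult POL2 covered 138.0 kb of it in 6 domains, 3 of them with FOXA2, and there were 5 adult FOXA2 intervals and none of PD12 FOXA2 or PD12 POL2. On chr18:70687400-70781199 (93.8 kb) the group had no PD12 POL2 either, with 5 adult and 2 PD12 FOXA2 intervals. In the other 3 groups PD12 POL2 lay between the domains: chr9:64879800-65045199 had 16.4 kb of it, of which 12 kb was a PD12 domain that touched no adult one, chr3:51300200-51365999 had 10.8 kb and chr1:172974400-173082199 had 4.6 kb. The pairs with most bases were chr5:107610400-107718799 (105.0 kb in 2 adult domains, 4 adult FOXA2 intervals), chr13:24724800-24832799 (103.4 kb in 5 adult domains, 2 intervals) and chr14:120684000-120752399 (62.6 kb in 4 adult domains, 4 intervals), and none of these 3 had PD12 POL2.

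**Figure D5:**
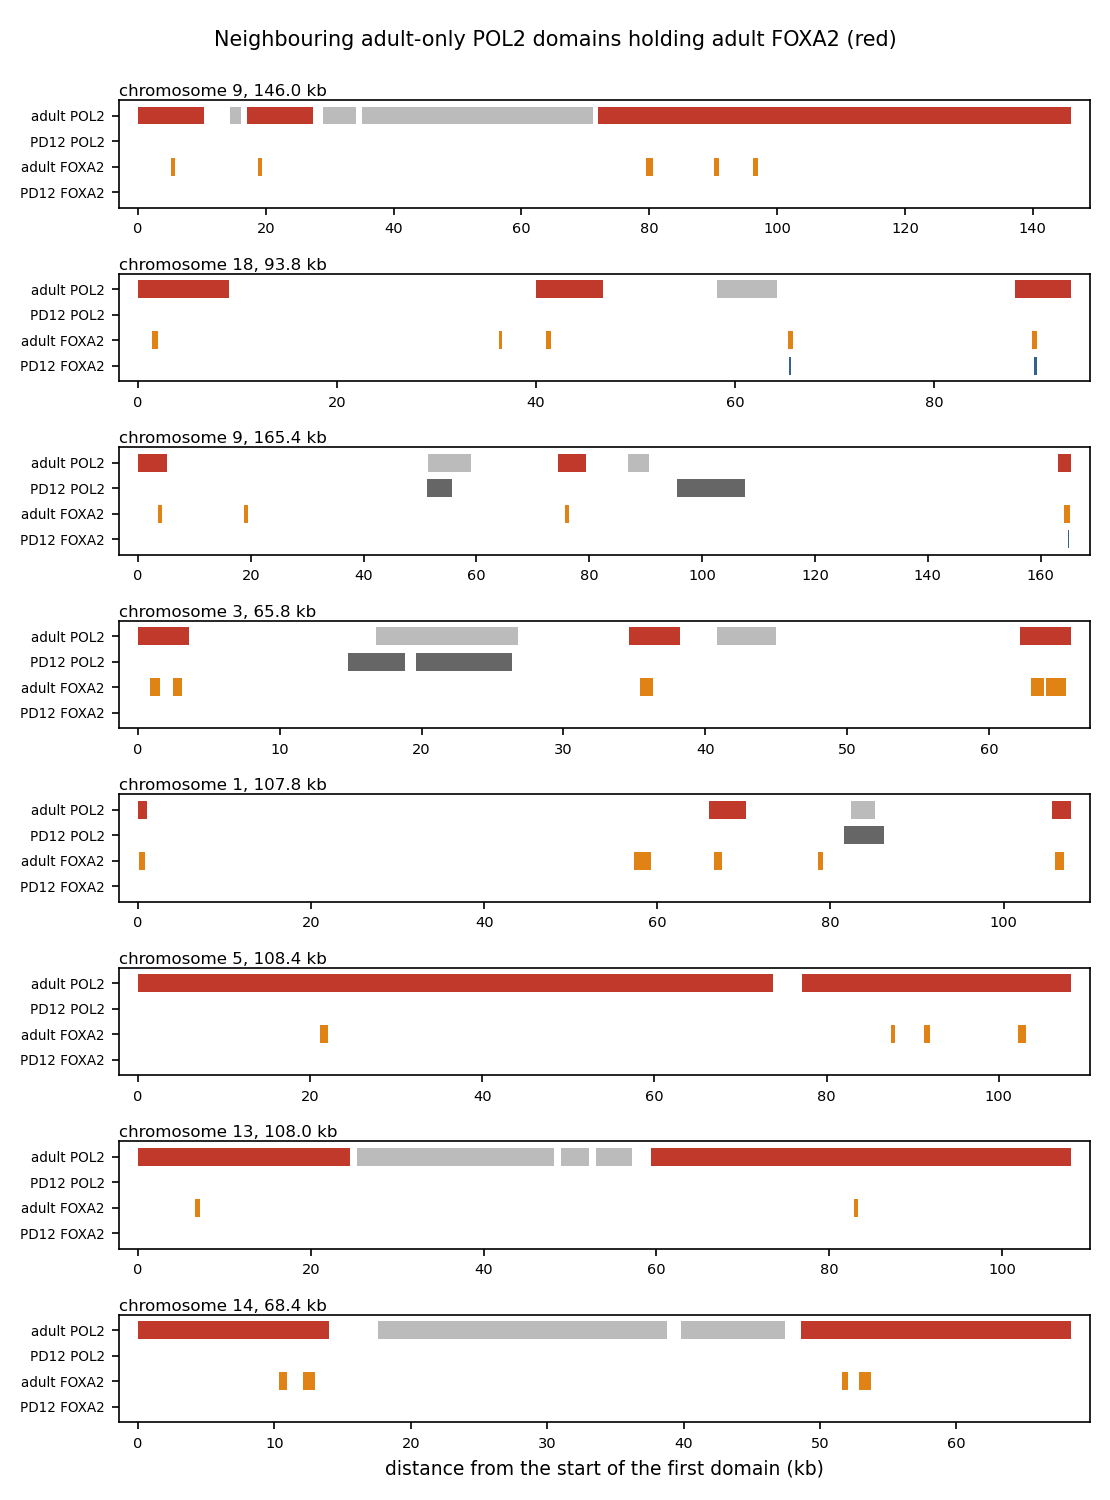
The 5 groups of 3 domains and the 3 pairs with most bases, each to its own scale against distance from the lower end of the first domain (horizontal axis, kb); rows show adult POL2 (red where the domain is adult-only and holds adult FOXA2, light grey otherwise), PD12 POL2 (dark grey), adult FOXA2 (orange) and PD12 FOXA2 (blue). PD12 POL2 is drawn in 3 of the 8 regions.

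Close to the limits of the choice, the least FOXA2 that counted was 8 bp, at chr5:20543400-20544999, and 8 of 750 domains had under 200 bp. On the other side, the nearest domains left out for want of FOXA2 were chr10:94249200-94251799, 25 bp from an adult interval, and chr1:129658400-129672599, 44 bp from one, and 60 of 6008 were within 1 kb. For PD12 POL2, chr14:58189400-58192199 and chr11:98766200-98769999 were kept although a PD12 domain adjoined them with no base between, whereas chr17:29482600-29485399 and chr3:95116600-95121599 were left out for 200 bp in common.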

How the data were processed

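Whole uterus was studied by ChIP-seq in 4 libraries, 1 per group. Per the labels' protocols, fixed tissue was sonicated and precipitated with 1 of 2 antibodies, and input DNA was prepared. The submitters' processing notes name BWA, with no version. Peak caller, threshold, input subtraction and build: not given in the sources used here. The deposited lists hold chromosome, start and end per the file headers, with no read number or height, so depth is unknown and the planned stricter threshold used width in its place. Every POL2 start is a multiple of 200 bp.

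Positions were taken as inclusive. Overlaps of 1 bp or more, gaps, widths and shares were computed with Python 3.11.15, numpy 2.4.6, pandas 2.3.3 and scipy 1.17.1 and figures with matplotlib 3.10.9; overlap, gap and merging steps were tested on simulated lists. The domains named are the 10 widest, the 10 with most adult FOXA2 intervals, the 10 most covered by FOXA2 (11 tied at full coverage, all counted), the 10 widest with PD12 FOXA2 and the 3 narrowest, and part of these are given by range. The domains and rules were chosen with earlier results of these data known. Gene lists, gene position and forkhead motifs were planned and not run, because no annotation or sequence of the files' build was used here.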

Additional observations from a re-analysis of the deposited data

How the results depend on the processing

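All alternatives here were planned. Over 6 results and 6 alternatives, 23 of 35 values stayed near the reported one (shares and medians within its 95% interval, the number of domains within 1.5 times) and 12 did not. With only domains of 5 kb or more, the share of adult-only domains holding adult FOXA2 was 13.2% in place of 11.1%, their number 265 in place of 750, their median width 7200 bp in place of 3800 bp, the share with PD12 FOXA2 5.28% in place of 7.20%, the median FOXA2 width 825.5 bp in place of 871.5 bp, and the share with PD12 POL2 within 5 kb 19.25% in place of 15.6%; the number and the width follow from the limit itself. With the whole FOXA2 interval inside the domain, the share holding FOXA2 was 8.48% and the median domain width 4200 bp. With the widest 50% of adult FOXA2 intervals these values were 8.97% and, for FOXA2 width, 948.5 bp, as fewer and wider intervals were used. With domains merged across gaps of up to 5 kb, the share holding FOXA2 was 13.0% and that with PD12 POL2 within 5 kb was 6.15%, as merging joins near neighbours. Requiring no PD12 POL2 within 5 kb, or the FOXA2 centre inside the domain, moved none of the values computed; a distance of 5 kb leaves no share within it to compute.

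No paired analysis was possible because the groups hold a single library each. For the same reason none was left out. Gene overlap, start sites and motifs, with their alternatives, were not run. Unknown depth limits every statement that a region was absent from a list, and the number of domains depends on where the caller split them. Another adult domain at the smallest gap in the list, 800 bp, was found for 66 of 750 (8.8%, 6.87 to 11.1). For adult-only domains without adult FOXA2 it was 651 of 6008 (10.8%, 10.06 to 11.65).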
